A study of Mus musculus with 67 samples.

Results

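The regulatory elements annotated to 9 genes of neuromesodermal progenitors (NMPs) were followed as NMPs derived from embryonic stem cells became ventral neural progenitors (NPs). The genes were T (Brachyury), Tbx6, Msgn1, Nkx1-2, Fgf8, Fgf17, Wnt3a, Wnt8a and Wnt5b, and their elements were those of the deposited accessibility table whose nearest transcription start site (TSS) belongs to 1 of them. There were 48 such elements of 111638 in all. T had 18, Wnt5b 14, Wnt3a 5 and Wnt8a 3, while Fgf8, Fgf17 and Msgn1 had 2 each and Nkx1-2 and Tbx6 had 1 each. Each element is named here by its gene and the distance in bp of its center from the TSS, negative upstream, so that T_-759 lies over the promoter of T. The nearest TSS does not show on which gene an element acts. Of the 48 elements, 4 were annotated as promoter-TSS, 1 as exonic, 26 as intronic and 17 as intergenic, and their widths ran from 300 to 5369 bp.

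All samples came from HM1, 1 mouse embryonic stem cell line, and were assayed by CaTS-ATAC, in which cells are fixed, transposed, stained for intracellular transcription factors and flow sorted. Up to day 3 every culture received bFGF, at first with the additive LGK. For the last day before day 3, LGK was replaced by the Wnt pathway activator CHIR99021 with SB431542 and DMH1. From day 3 the methods list none of these. NMPs were collected at day 3 (n = 3), before retinoic acid and at 0 nM of the Smoothened agonist SAG. From day 3 all NP cultures received 100 nM retinoic acid, with SAG at 0 or 10 nM for p0-1, 10 or 100 nM for p2 and 100 or 500 nM for pMN and p3. The SAG concentrations of a type were pooled, giving 6 p0-1, 6 p2, 6 pMN and 5 p3 samples at day 4, 6, 6, 5 and 5 at day 5, and 5, 6, 4 and 4 at day 6. NMPs therefore differ from every NP group in day, retinoic acid and the end of bFGF, CHIR99021, SB431542 and DMH1 together. They also differ from all but the 0 nM samples of p0-1 in SAG, and these differences cannot be told apart. How the NMPs were gated is not given in the sources used here.

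NMPs are bipotent cells of the caudal embryo that give rise to spinal cord and to paraxial mesoderm. In them T and canonical Wnt ligands such as Wnt3a and Wnt8a sustain each other, FGF ligands such as Fgf8 and Fgf17 hold back differentiation, and Nkx1-2 marks the progenitors and the preneural tube. Tbx6 and Msgn1 are transcription factors of the presomitic mesoderm, the alternative to a neural fate, and Wnt5b is a Wnt ligand known mainly for non-canonical signaling. Open chromatin is cut by the Tn5 transposase, so the reads in an element measure its accessibility. In sorted pools, fewer cells with an open element and less opening per cell cannot be told apart.

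Values are given as normalized counts, that is, reads in an element divided by the size factor of the sample, recovered from the deposited variance-stabilized (VST) values. Depth was 9298160 to 29985325 reads in elements per sample. Tests used the VST values, which are on a log2 scale and compress differences between low counts. An element was called lower or higher at an adjusted p below 0.01 (limma, Benjamini-Hochberg over all 111638 elements) and an absolute difference of VST means above 2. At the element nearest the TSS, Olig2 was highest in pMN at day 6 (mean 2325 against 408 to 1005 in the other types) and Foxa2 was highest in p3 (1662 against 261 to 306). NMPs had 1114 at the Olig2 element and 1494 at the Foxa2 element. Of the other listed p3 genes, Nkx2-9 was higher in pMN (2091) than in p3 (1914) at day 6, and Nkx2-2 had no element. Of the listed p0-1 and p2 genes, Pax6, Irx3, Dbx1 and Dbx2 were highest in p0-1 at day 6 (3889, 3014, 2549 and 424). Nkx6-1 was highest in pMN (2586, against 2431 in p2), so none of these was highest in p2. Cdx2, a caudal factor of NMPs, had a mean of 3686 in NMPs and of 264 to 336 at day 6. Of the other listed NMP genes, Sox2 went the other way, with 1513 in NMPs and 1778 to 2018 at day 6. T and Nkx1-2 are described below. NMPs were also accessible at pluripotency genes. Over the elements nearest the TSS of Pou5f1, Nanog, Zfp42 and Esrrb, 4 of 4 listed genes, the summed normalized count was 2281 to 3166 in NMPs, 386 to 785 at day 4 and 260.4 to 393 at day 6. This sum declined together with the elements described below, and its part in the result was not tested. For 3 paraxial mesoderm genes, Meox1, Tcf15 and Pax9, the sum was 2345 to 2909 in NMPs and 1543 to 3017 at day 4. It was 1871 to 2782 at day 5 and 1608 to 2813 at day 6. Meox1 went against the other 2 genes. Its mean was 77.8 in NMPs, 185 to 297 at day 4 and 535 to 1013 at day 5, while Tcf15 and Pax9 were lower in every type at day 4 than in NMPs. For 4 neuronal genes, Tubb3, Elavl3, Elavl4 and Isl1, it was 3581 to 4314 in NMPs, 2115 to 3599.6 at day 4 and 2805 to 6225 at day 6. Endoderm genes (2 of 2, Sox17 and Gata6) summed to 534 to 673 in NMPs and 186 to 366 at day 4, and neural crest genes (2 of 2, Sox10 and Foxd3) to 827 to 1055 and 256 to 781. No listed marker had a group mean of 0 at this element. Among the 23 samples of day 4, 1 library stood apart. Replicate 3 of p0-1 at 10 nM SAG had the highest correlation with the NMP mean over all elements, r = 0.835 against 0.675 to 0.812 in the others, and the highest count at T_-759, 468 against 165 to 335.

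The sequences below, from RefSeq GRCm38.p6 on the plus strand, belong to the elements on which the results turn. The first is the 250 bases upstream of the TSS of T (chr17:8434173-8434422), which lie inside T_-759. The others are the central 300 bases of an element. T_-12967 (chr17:8421306-8421605, in an intron of T2) is, beside its promoter, the T element with the largest decrease at day 4, and Wnt5b_-91571 (chr6:119635768-119636067) is the Wnt5b element with the largest decrease. Wnt5b_-57381 (chr6:119601578-119601877) was lowest in p3 among the NP types at day 6, whereas Wnt5b_-99690 (chr6:119643887-119644186), Wnt5b_-102568 (chr6:119646765-119647064) and Wnt5b_-125637 (chr6:119669834-119670133) were highest in p3. All 5 of these Wnt5b elements lie in introns of Erc1, the neighboring gene. Capitals mark matches on either strand to the letters CTTTGAT (TCF/LEF, the factors of canonical Wnt signaling), TTTATGG or TTTATTG (CDX), AGGTGTGA (T-box), ACAATGG (SOX) and TGTTTAC (forkhead).
T_upstream: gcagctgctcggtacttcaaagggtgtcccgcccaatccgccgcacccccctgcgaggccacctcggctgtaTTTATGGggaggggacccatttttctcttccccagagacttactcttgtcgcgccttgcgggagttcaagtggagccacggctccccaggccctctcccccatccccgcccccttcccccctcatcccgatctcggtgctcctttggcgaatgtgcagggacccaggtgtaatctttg
T_-12967: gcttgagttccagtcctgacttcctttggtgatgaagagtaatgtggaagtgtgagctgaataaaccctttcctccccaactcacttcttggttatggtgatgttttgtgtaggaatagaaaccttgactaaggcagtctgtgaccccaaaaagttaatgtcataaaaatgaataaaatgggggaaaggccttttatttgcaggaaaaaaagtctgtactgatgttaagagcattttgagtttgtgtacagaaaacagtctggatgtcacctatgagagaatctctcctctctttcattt
Wnt5b_-91571: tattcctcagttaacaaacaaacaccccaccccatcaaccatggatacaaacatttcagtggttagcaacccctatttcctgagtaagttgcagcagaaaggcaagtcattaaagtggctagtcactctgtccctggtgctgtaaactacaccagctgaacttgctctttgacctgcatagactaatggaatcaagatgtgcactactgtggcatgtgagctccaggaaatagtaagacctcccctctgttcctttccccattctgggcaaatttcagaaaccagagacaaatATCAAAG
Wnt5b_-57381: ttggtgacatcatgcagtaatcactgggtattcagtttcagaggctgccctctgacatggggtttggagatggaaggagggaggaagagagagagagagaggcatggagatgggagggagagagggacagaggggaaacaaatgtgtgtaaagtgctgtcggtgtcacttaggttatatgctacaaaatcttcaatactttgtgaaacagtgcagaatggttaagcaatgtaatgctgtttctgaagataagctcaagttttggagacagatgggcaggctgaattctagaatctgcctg
Wnt5b_-99690: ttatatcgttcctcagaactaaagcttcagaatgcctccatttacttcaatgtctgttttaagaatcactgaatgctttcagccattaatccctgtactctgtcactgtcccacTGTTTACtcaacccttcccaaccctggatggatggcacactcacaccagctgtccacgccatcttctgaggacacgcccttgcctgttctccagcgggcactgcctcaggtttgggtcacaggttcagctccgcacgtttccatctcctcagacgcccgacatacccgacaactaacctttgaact
Wnt5b_-102568: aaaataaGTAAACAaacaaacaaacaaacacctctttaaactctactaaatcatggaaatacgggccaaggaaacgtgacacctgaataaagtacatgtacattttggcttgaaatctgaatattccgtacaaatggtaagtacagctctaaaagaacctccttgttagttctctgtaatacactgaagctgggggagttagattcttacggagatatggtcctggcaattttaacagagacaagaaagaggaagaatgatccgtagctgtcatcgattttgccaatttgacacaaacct
Wnt5b_-125637: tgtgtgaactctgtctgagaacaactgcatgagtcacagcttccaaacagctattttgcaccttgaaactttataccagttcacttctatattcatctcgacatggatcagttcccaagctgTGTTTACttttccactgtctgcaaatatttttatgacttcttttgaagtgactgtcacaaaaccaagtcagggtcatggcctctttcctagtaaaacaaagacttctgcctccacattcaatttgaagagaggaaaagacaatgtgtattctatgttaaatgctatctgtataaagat

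Between NMPs and day 4 the elements called lower in all 4 types were the T promoter and 2 elements upstream of T, and the promoter and an intergenic downstream element of Wnt8a. In the comparisons with NMPs, 6 of 48 elements were called lower in p0-1, 8 in p2, 8 in pMN and 8 in p3. These are 12.5, 16.7, 16.7 and 16.7% of the 48, where 5.34, 5.98, 6.24 and 5.95% of all elements were called lower. Called higher were 4 in each type, 8.33% of the 48, where the shares of all elements were 8.8, 11, 11.3 and 9.61%. In all, 9 elements were called lower in at least 1 type, 5 of them in all 4, and 5 were called higher in at least 1 type, 3 of them in all 4. The shares of all elements called in at least 1 type or in all 4 were not counted. The 4 comparisons share the NMP samples, so their calls are not independent. At the lower threshold of a difference above 1, 16, 19, 18 and 19 elements were called lower in p0-1, p2, pMN and p3, where 18.6, 20.2, 20.4 and 19.9% of all elements were. The median VST difference from NMPs over the 48 elements was -0.59 in p0-1, -0.67 in p2, -0.65 in pMN and -0.72 in p3. Over all elements it was 0.03 in p0-1, 0.11 in p2, 0.12 in pMN and 0.04 in p3.

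**Figure D1:**
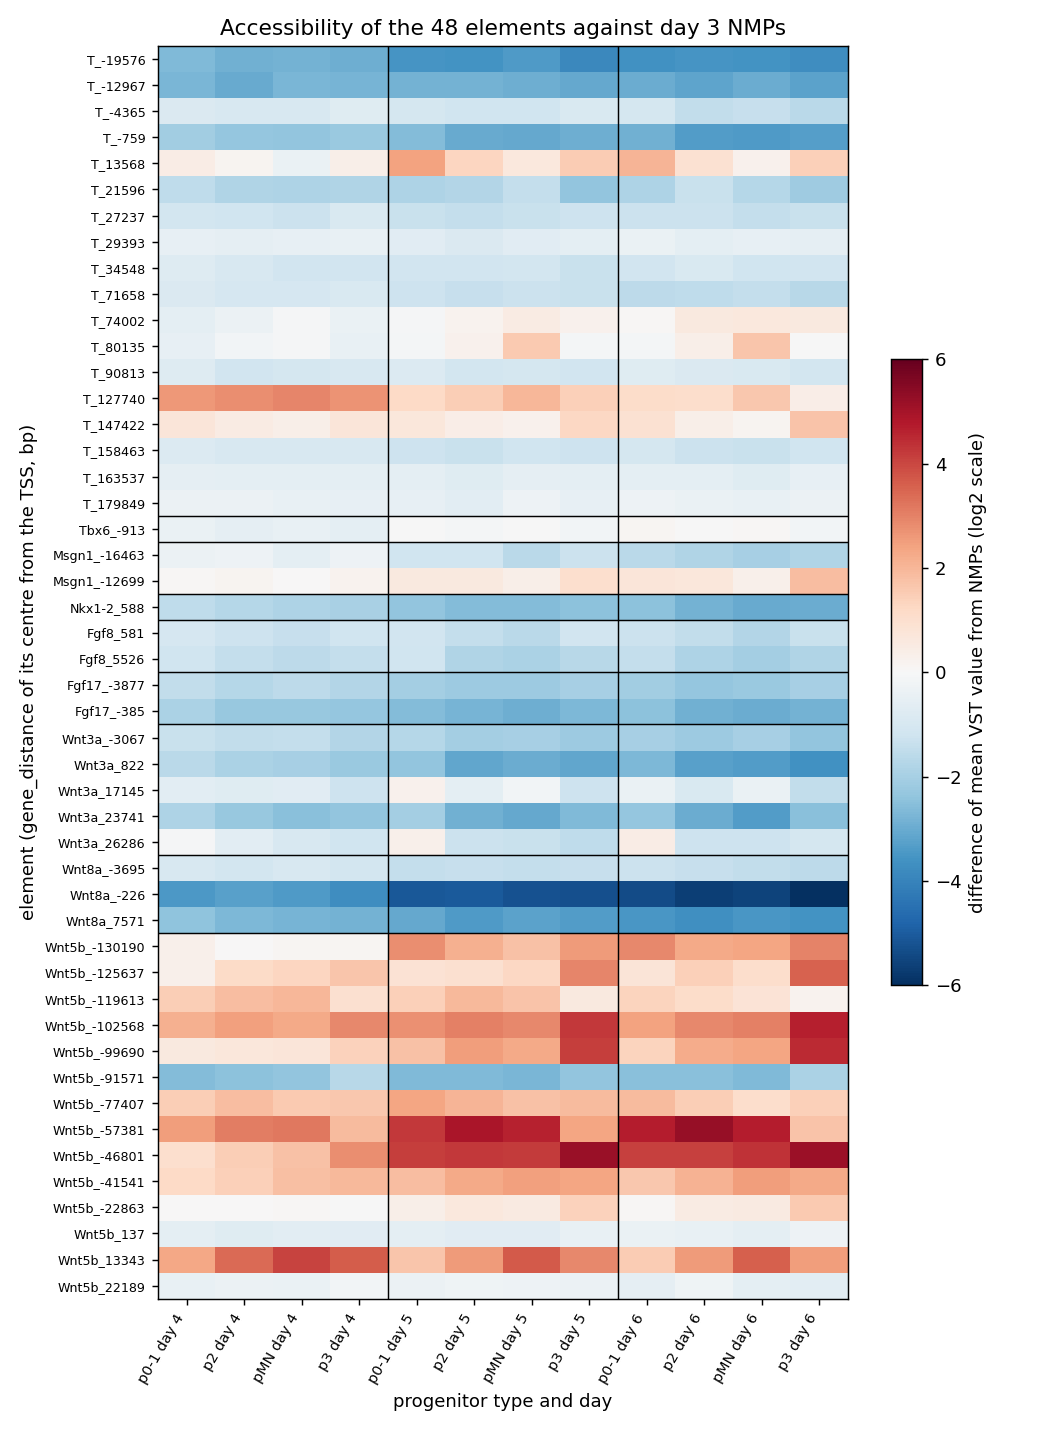
Difference of the mean VST value (log2 scale, color) of each NP type and day from the NMP mean for the 48 elements, in rows by gene and distance from the TSS, with the 4 types at days 4, 5 and 6 in columns. Wnt8a_-226 is the lowest, at -6.06 in p3 at day 6, Tbx6_-913 lies between -0.56 and 0.13 at days 4 and 6, and most Wnt5b elements lie above 0.

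T encodes the T-box factor that maintains the NMP pool and drives mesoderm formation. At T_-759 (chr17:8432253-8435075) the 3 NMP samples had normalized counts of 1056, 1280.0 and 1188. At day 4 the lowest, median and highest counts were 182, 258 and 468 in p0-1, 171, 218 and 290.0 in p2 and 166, 227 and 262 in pMN, and the 5 p3 samples had 335, 219.9, 287, 165 and 235. All 23 samples of day 4 were below the NMP samples, and the 4 types overlapped one another. The VST difference from NMPs was -2.10 ± 0.24 SE (adjusted p = 3.25e-06) in p0-1, -2.34 ± 0.15 SE (adjusted p = 2.99e-10) in p2, -2.38 ± 0.15 SE (adjusted p = 3.82e-11) in pMN and -2.22 ± 0.18 SE (adjusted p = 2.58e-08) in p3. Without replicate 1 the difference in p0-1 was -1.95 and not called. By day 6 the mean count was 149 ± 31.6 (SD, n = 5) in p0-1, 105 ± 14.2 (SD, n = 6) in p2, 99.0 ± 11.1 (SD, n = 4) in pMN and 108 ± 8.89 (SD, n = 4) in p3.

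T_-12967 (chr17:8420897-8422016) had 76.4, 158 and 116 in the NMP samples and between 1.69 and 13.4 in the NP samples of day 4. Means at day 4 were 7.76 ± 1.14 (SD, n = 6) in p0-1, 5.32 ± 2.60 (SD, n = 6) in p2, 8.43 ± 2.96 (SD, n = 6) in pMN and 7.74 ± 2.33 (SD, n = 5) in p3, so that NMPs and NPs did not overlap. The VST difference was -2.76 ± 0.22 SE (adjusted p = 1.11e-07) in p0-1, -3.04 ± 0.23 SE (adjusted p = 2.12e-09) in p2, -2.72 ± 0.21 SE (adjusted p = 7.58e-10) in pMN and -2.78 ± 0.24 SE (adjusted p = 6.38e-08) in p3. At day 6 its means were 3.79 to 5.90. T_-19576 (chr17:8413624-8416071), singled out after its values were seen, had 331, 546 and 594 in NMPs and means of 51.7 to 67.2 at day 4 and 24.7 to 30.2 at day 6. It was called lower in all 4 types on both days. Both elements lie in introns of T2, the gene upstream of T.

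The other elements of T, named here after their values were seen except for T_127740, were less uniform. On the upstream side T_-4365 had a mean of 260.1 in NMPs and 125 to 149.5 at day 4, with VST differences of -0.74 to -0.97 that missed the threshold. Downstream, T_21596, T_27237, T_34548, T_71658, T_90813 and T_158463 had lower means in every type at day 4 than in NMPs, and none was called at day 4. T_127740 (chr17:8561791-8562536), in intron 1 of Pde10a, moved the other way. It had 2.42, 4.05 and 5.38 in NMPs and means of 72.3 ± 15.1 (SD, n = 6) in p0-1, 83.3 ± 6.18 (SD, n = 6) in p2, 93.3 ± 21.8 (SD, n = 6) in pMN and 76.3 ± 12.8 (SD, n = 5) in p3 at day 4, and was called higher in all 4 types, with VST differences of 2.60 to 2.92. At day 5 the means were 20.8 to 42.9, and at day 6 they were 20.5 in p0-1, 18.4 in p2, 31.3 in pMN and 7.57 in p3. From day 4 to day 5, over all types, the difference was -1.24 ± 0.08 SE (adjusted p = 1.15e-17), short of the threshold of 2.

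Wnt8a, a canonical Wnt ligand of the caudal embryo, had the element with the largest decrease of the 48. At its promoter, Wnt8a_-226 (chr18:34541126-34543077), the NMP samples had 1302, 1795 and 1548, and the day 4 samples had 90.4 to 194 in p0-1, 119 to 180.5 in p2, 106 to 163 in pMN and 92.2 to 123 in p3. NMPs and NPs did not overlap. The VST difference was -3.45 ± 0.21 SE (adjusted p = 1.06e-08) in p0-1, -3.26 ± 0.14 SE (adjusted p = 1.06e-12) in p2, -3.39 ± 0.15 SE (adjusted p = 1.69e-13) in pMN and -3.73 ± 0.15 SE (adjusted p = 8.41e-12) in p3. Means were 27.9 to 35.8 at day 5 and 12.4 to 26.4 at day 6, where the differences from NMPs were -5.35 to -6.06. Wnt8a_7571 (chr18:34547214-34552582), an intergenic element, had 1258, 1582 and 1698 in NMPs and means of 201 to 269.6 at day 4, and was called lower in all 4 types. Wnt8a_-3695, named after its values were seen, had a mean of 199 in NMPs and 84.5 to 95.6 at day 4, and was not called at day 4 or day 6.

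**Figure D2:**
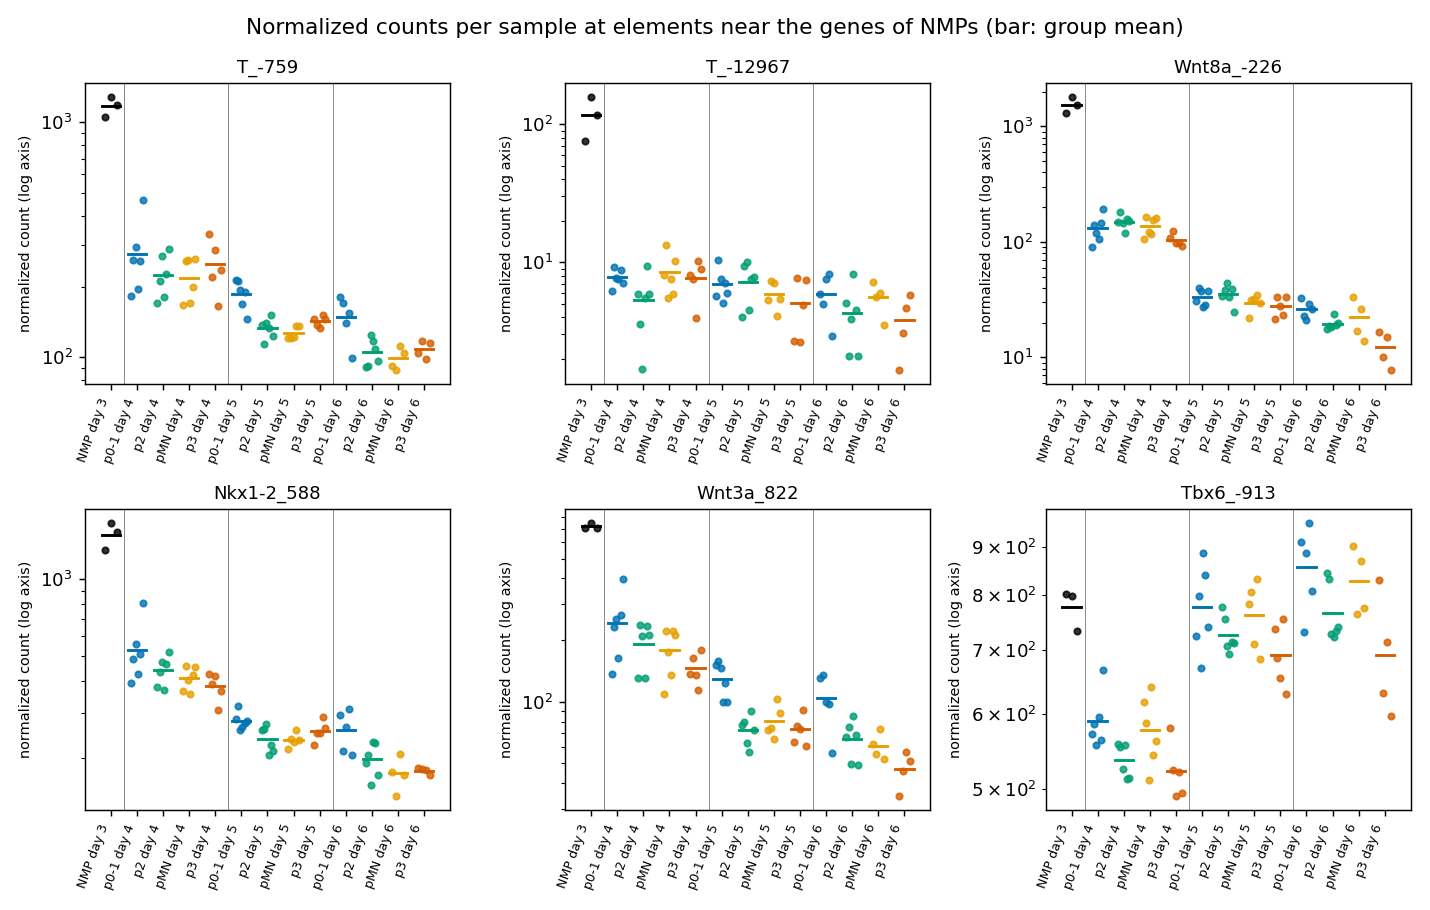
Normalized counts of every sample (points, log axis) and group means (bars) at 6 elements, for NMPs at day 3 and the 4 NP types at days 4, 5 and 6. At T_-759, T_-12967, Wnt8a_-226, Nkx1-2_588 and Wnt3a_822 every NP sample lies below the 3 NMP samples, whereas at Tbx6_-913 the NP samples lie at 492 to 667 at day 4 and overlap the NMP samples at day 6.

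Wnt3a, the ligand that maintains the NMP pool with T, had its element nearest the TSS in intron 1, Wnt3a_822 (chr11:59288569-59291289). It had 704, 747 and 709 in NMPs and means at day 4 of 241 ± 92.3 (SD, n = 6) in p0-1, 192 ± 48.8 (SD, n = 6) in p2, 179 ± 47.7 (SD, n = 6) in pMN and 146 ± 25.4 (SD, n = 5) in p3. All NP samples were below the NMPs. The difference was -1.61 ± 0.25 SE (adjusted p = 7.53e-05) in p0-1, -1.88 ± 0.18 SE (adjusted p = 3.78e-08) in p2, -1.98 ± 0.18 SE (adjusted p = 6.74e-09) in pMN and -2.22 ± 0.15 SE (adjusted p = 3.60e-09) in p3, and it passed the threshold of 2 in p3. The difference between p3 and the other types at day 4, -0.40 ± 0.18 (SE), was not called. By day 6 it was called lower in all 4 types, with differences of -2.70 to -3.64. Wnt3a_23741 (chr11:59266654-59267367), in intron 2, had 164, 162 and 112 in NMPs and 14.1 to 62.5 in p0-1, 15.0 to 31.9 in p2, 12.0 to 21.3 in pMN and 13.2 to 26.2 in p3 at day 4. It was called lower in p2, pMN and p3. In p0-1 the difference was -1.86, or -2.02 and called without replicate 3 of 10 nM SAG. At day 6 Wnt3a_23741 was called lower in all 4 types. Its p0-1 means differed by SAG, at 42.9 at 0 nM and 15.2 at 10 nM at day 5, and 41.8 and 11.8 at day 6. The SAG fit given below, without a block, did not call this difference on either day. The mean VST value at day 6 was 5.70 at 0 nM and 4.52 at 10 nM, against 7.29 in NMPs, so the 0 nM samples alone fell short of the threshold.

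Fgf17, an FGF ligand of the Fgf8 subfamily, had 2 elements. Its promoter Fgf17_-385 (chr14:70641730-70643576) had 396, 352 and 277 in NMPs and means of 81.3 ± 15.7 (SD, n = 6) in p0-1, 60.2 ± 6.18 (SD, n = 6) in p2, 61.0 ± 8.38 (SD, n = 6) in pMN and 57.9 ± 12.8 (SD, n = 5) in p3 at day 4. It was called lower in p2, pMN and p3, with a difference of -1.92 ± 0.19 (SE) in p0-1. Fgf17_-3877 had a mean of 639 in NMPs and 179.7 to 220.1 at day 4, and was called lower in all 4 types at day 6, when its means were 119.9 to 149. Fgf8 is the main FGF ligand of the caudal stem zone. Fgf8_581 (chr19:45740967-45743640), in intron 2, had 639, 558 and 519 in NMPs and means of 286 ± 102 (SD, n = 6) in p0-1, 235 ± 42.5 (SD, n = 6) in p2, 212 ± 37.6 (SD, n = 6) in pMN and 246 ± 39.9 (SD, n = 5) in p3 at day 4. Its differences from NMPs were -1.03 to -1.39 at day 4 and -1.29 to -1.75 at day 6, short of the threshold. Fgf8_5526, in the last intron, was called lower at day 6 in pMN, and its differences were -1.43 in p0-1, -1.84 in p2, -2.04 in pMN and -1.80 in p3. Within p0-1 its means at 0 and 10 nM SAG were 167 and 103 at day 5, and 165 and 84.6 at day 6.

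Nkx1-2, a homeobox gene of NMPs and the preneural tube, had 1 element, Nkx1-2_588 (chr7:132596819-132601279), annotated to its intron. The NMP samples had 1295, 1655 and 1525. The day 4 means were 530.4 ± 148 (SD, n = 6) in p0-1, 441 ± 58.1 (SD, n = 6) in p2, 410.0 ± 42.0 (SD, n = 6) in pMN and 382 ± 47.3 (SD, n = 5) in p3, with all 23 samples below the NMPs. The difference was -1.50 ± 0.20 SE (adjusted p = 1.52e-05) in p0-1, -1.73 ± 0.12 SE (adjusted p = 7.14e-10) in p2, -1.83 ± 0.11 SE (adjusted p = 2.50e-11) in pMN and -1.93 ± 0.13 SE (adjusted p = 4.01e-09) in p3, short of the threshold of 2. By day 6 the means were 258 in p0-1, 198 in p2, 175 in pMN and 179 in p3, and the element was called lower in all 4 types (-2.48 in p0-1, -2.84 in p2, -3.00 in pMN and -2.96 in p3).

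The elements of the presomitic mesoderm genes were not called at day 4. Tbx6_-913 (chr7:126779856-126781284), annotated as the promoter of Tbx6 and also overlapping the 3′ end of Ypel3, had 801, 798 and 733 in NMPs. At day 4 it had a median of 578 in p0-1, 539 in p2, 574 in pMN and 521 in p3, with differences of -0.39 to -0.56, and all 23 samples lay below the NMPs. At day 6 the means were 857 ± 87.9 (SD, n = 5) in p0-1, 767 ± 55.4 (SD, n = 6) in p2, 827 ± 68.3 (SD, n = 4) in pMN and 693 ± 104 (SD, n = 4) in p3, overlapping the NMP samples in each type, with differences of 0.13 in p0-1, -0.02 in p2, 0.09 in pMN and -0.17 in p3. Msgn1_-16463 (chr12:11224412-11226411) had 66.7, 108 and 125 in NMPs and means of 60.6 to 77.7 at day 4, overlapping them. At day 6 its means were 15.9 to 24.6, and it was called lower in pMN, with differences of -1.64 in p0-1, -1.79 in p2, -2.01 in pMN and -1.79 in p3. Msgn1_-12699, the element nearest the TSS of Msgn1, had 23.0, 22.9 and 30.2 in NMPs and means of 27.2 to 31.8 at day 4. At day 6 it had 112, 136, 107 and 128 in the p3 samples and 27.1 to 68.0 in the other types, which did not overlap p3. The difference of p3 from them was 1.28 ± 0.15 SE (adjusted p = 2.42e-07), short of the threshold of 2.

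At Wnt5b more elements were called higher than lower. It held 3 of the 4 elements called higher in each type at day 4. The element over its first exon, Wnt5b_137 (chr6:119543246-119545174), had 776, 684 and 622 in NMPs, means of 421 to 467 at day 4 and 458 to 568 at day 6, and was not called at day 4, with differences of -0.60 to -0.71. Of the 14 Wnt5b elements, Wnt5b_-91571 (chr6:119635582-119636254) was the one called lower. It had 99.4, 103 and 77.5 in NMPs and means of 6.71 ± 1.87 (SD, n = 6) in p0-1, 8.50 ± 2.87 (SD, n = 6) in p2, 9.49 ± 2.54 (SD, n = 6) in pMN and 21.9 ± 7.79 (SD, n = 5) in p3 at day 4. It was called in p0-1, p2 and pMN and not in p3, with differences of -2.62 in p0-1, -2.47 in p2, -2.38 in pMN and -1.68 in p3. The difference between p3 and the other types at day 4, 0.81 ± 0.14 (SE), was not called.

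**Figure D3:**
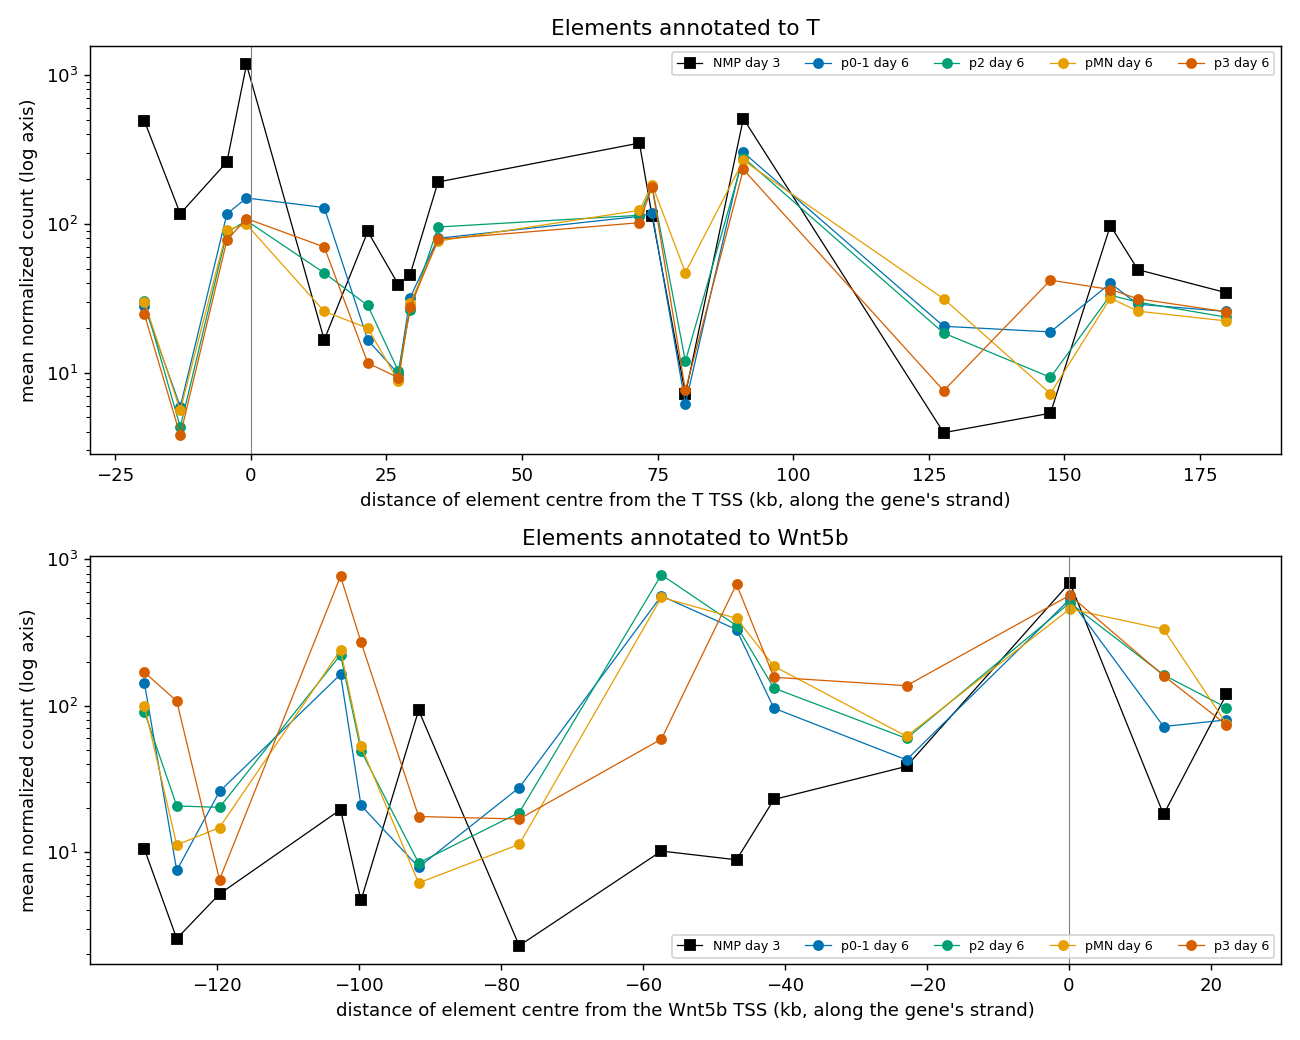
Mean normalized count (log axis) of each element of T (upper panel) and of Wnt5b (lower panel) against the distance of its center from the TSS in kb, for NMPs and the 4 NP types at day 6. Around T, NMPs are highest at the elements from T_-19576 to T_-759, and upstream of Wnt5b, NMPs are lowest at each element other than Wnt5b_-91571.

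Wnt5b_13343 (chr6:119530345-119531664), in intron 1 of Wnt5b, had 12.1, 16.2 and 25.8 in NMPs and was called higher in all 4 types at day 4. Its means there were 139.6 ± 54.4 (SD, n = 6) in p0-1, 292 ± 53.9 (SD, n = 6) in p2, 471 ± 94.8 (SD, n = 6) in pMN and 349.9 ± 70.4 (SD, n = 5) in p3. The VST difference from NMPs was 2.31 ± 0.29 SE (adjusted p = 7.96e-06) in p0-1, 3.38 ± 0.18 SE (adjusted p = 2.67e-11) in p2, 4.04 ± 0.17 SE (adjusted p = 1.28e-13) in pMN and 3.63 ± 0.20 SE (adjusted p = 3.03e-10) in p3. The Wnt5b elements that follow were singled out after their values were seen. Wnt5b_-102568 had 12.1, 21.6 and 24.8 in NMPs and means of 131 in p0-1, 156 in p2, 135 in pMN and 219 in p3 at day 4, and was called higher in all 4 types. Wnt5b_-57381 had 12.1, 10.8 and 7.54 in NMPs and means of 117 in p0-1, 167 in p2, 185 in pMN and 67.9 in p3, and was called higher in p0-1, p2 and pMN, with 1.90 in p3. Wnt5b_-46801 was called higher at day 4 in p3, where it had a mean of 123 ± 22.9 (SD, n = 5) against 8.85 in NMPs.

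By day 6, 11 elements were called lower than in NMPs in p0-1, 12 in p2, 13 in pMN and 12 in p3, where 10.5, 11.3, 11.7 and 11.7% of all elements were called lower. Called higher were 5, 7, 7 and 7, where the shares of all elements were 14.9, 17.8, 18.1 and 18%. In all 4 types 10 elements were called lower, and 15 were in at least 1. The share of all elements was not counted for either. The 10 were T_-759, T_-12967, T_-19576, Nkx1-2_588, both elements of Fgf17, Wnt3a_822, Wnt3a_23741, Wnt8a_-226 and Wnt8a_7571. These comparisons share the NMP samples with one another and with those of day 4.

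Few elements were called between the later days. From day 4 to day 5, fitted over the 4 types with type as a term, 2 of 48 elements were called, both higher, where 0.972% of all elements were called higher and 0.124% lower. Wnt5b_-46801 (chr6:119590648-119591649) had means of 30.7 in p0-1, 44.7 in p2, 59.2 in pMN and 123 in p3 at day 4 and of 334 in p0-1, 363 in p2, 349.9 in pMN and 705 in p3 at day 5, a difference of 2.70 ± 0.12 SE (adjusted p = 6.90e-25). Wnt5b_-130190 (chr6:119674138-119674936) had means of 10.5 to 14.7 at day 4 and 61.7 to 134 at day 5, a difference of 2.17 ± 0.10 SE (adjusted p = 2.82e-24). At both elements every sample of day 5 was above every sample of day 4. Wnt8a_-226 had a difference of -1.70 ± 0.07 (SE) between these days, with all samples of day 5 below those of day 4, short of the threshold. From day 5 to day 6, 0 of 48 elements were called in limma, where 0.0287% of all elements were called higher and 0.00537% lower. Without adjustment 24 of the 48 had p below 0.05, and voom on the recovered reads also called 0. The share of all elements was not counted for either.

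Between types, the elements called in the limma fits of all samples without a replicate block were annotated to Wnt5b, while T_13568 was also called between pMN and p0-1 at day 6 with the block. p3 was compared with the mean of the other 3 types within a day. At day 4, 0 of 48 elements were called by limma, where 0.211% of all elements were called lower and 0.185% higher in p3. By voom 0 were called as well, and 17 had an unadjusted p below 0.05 in limma. The share of all elements was not counted for these. At day 5, 1 was called, Wnt5b_-57381, lower in p3, where the shares of all elements were 1.62% lower and 1.2% higher. At day 6, Wnt5b_-57381 was again lower and Wnt5b_-99690 and Wnt5b_-125637 were higher, where 2.74% of all elements were lower and 3.69% higher. With a mean above 100 normalized counts required over the samples of day 6, the call of Wnt5b_-57381 remained. Wnt5b_-99690 and Wnt5b_-125637 have means of 89.6 and 33.5 and did not enter that fit.

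At Wnt5b_-57381 (chr6:119601242-119602214), the p3 samples of day 6 had 94.0, 45.8, 57.7 and 38.8, while p0-1 had 356 to 697, p2 had 546 to 898 and pMN had 717, 532, 583 and 368. p3 did not overlap the other types on day 5 or day 6, and the differences were -2.20 ± 0.09 SE (adjusted p = 8.66e-16) and -3.18 ± 0.20 SE (adjusted p = 6.26e-11). At Wnt5b_-99690 (chr6:119643770-119644304), p3 had 308, 212, 334 and 237 at day 6 and the other types 12.9 to 70.3, a difference of 2.49 ± 0.18 SE (adjusted p = 3.85e-10). At day 5 its p3 mean was 219, with a difference of 1.99 ± 0.16 (SE) that became 2.00 and was called with the replicate number as a block, giving 2 calls at day 5, and at day 4 it was 21.7. At Wnt5b_-125637 (chr6:119669770-119670198), p3 had 95.6, 98.7, 92.4 and 144 at day 6 and the others 3.53 to 59.8, a difference of 2.44 ± 0.27 SE (adjusted p = 1.99e-07). Wnt5b_-102568 (chr6:119645770-119648060) had 859, 725, 753 and 733 in p3 and 95.5 to 383 in the others at day 6, with no overlap and a difference of 1.90 ± 0.24 (SE), short of the threshold.

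Between pMN and p0-1, 0 of 48 elements were called at day 4 and 0 at day 5 by limma, with 18 and 23 at an unadjusted p below 0.05 and 0 and 3 called by voom, those of day 5 being T_13568, T_80135 and Wnt5b_13343. For the unadjusted p and for voom the share of all elements was not counted. The p0-1 and pMN samples share no SAG concentration, so that type and SAG cannot be told apart here. At day 4, 0.00179% of all elements were called lower and 0.184% higher in pMN, and at day 5, 0.108% and 0.844%. At day 6, 1 was called, Wnt5b_13343, where 0.236% of all elements were lower and 1.03% higher in pMN. It had 306, 303, 379 and 346 in pMN and 58.9, 44.6, 89.6, 89.7 and 77.5 in p0-1 at day 6, a difference of 2.06 ± 0.23 SE (adjusted p = 9.54e-07). pMN was above p0-1 with no overlap on each of the 3 days. p2 had 123 to 209.8 and p3 had 99.0 to 247 at day 6, overlapping each other. The call at day 6 was lost when samples were centred on their medians and without replicate 3. Within p0-1 its 0 nM samples were below those of 10 nM. They had 55.7, 80.4 and 40.0 against 112, 120.0 and 98.3 at day 5, and 58.9 and 44.6 against 89.6, 89.7 and 77.5 at day 6. Both sets were below pMN. In p2 the means at day 6 were 131 at 10 nM and 194 at 100 nM. In pMN they were 304 at 100 nM and 362 at 500 nM, while p3 went the other way, with 186 and 135. These differences by SAG within p2, pMN and p3 were not tested.

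**Figure D4:**
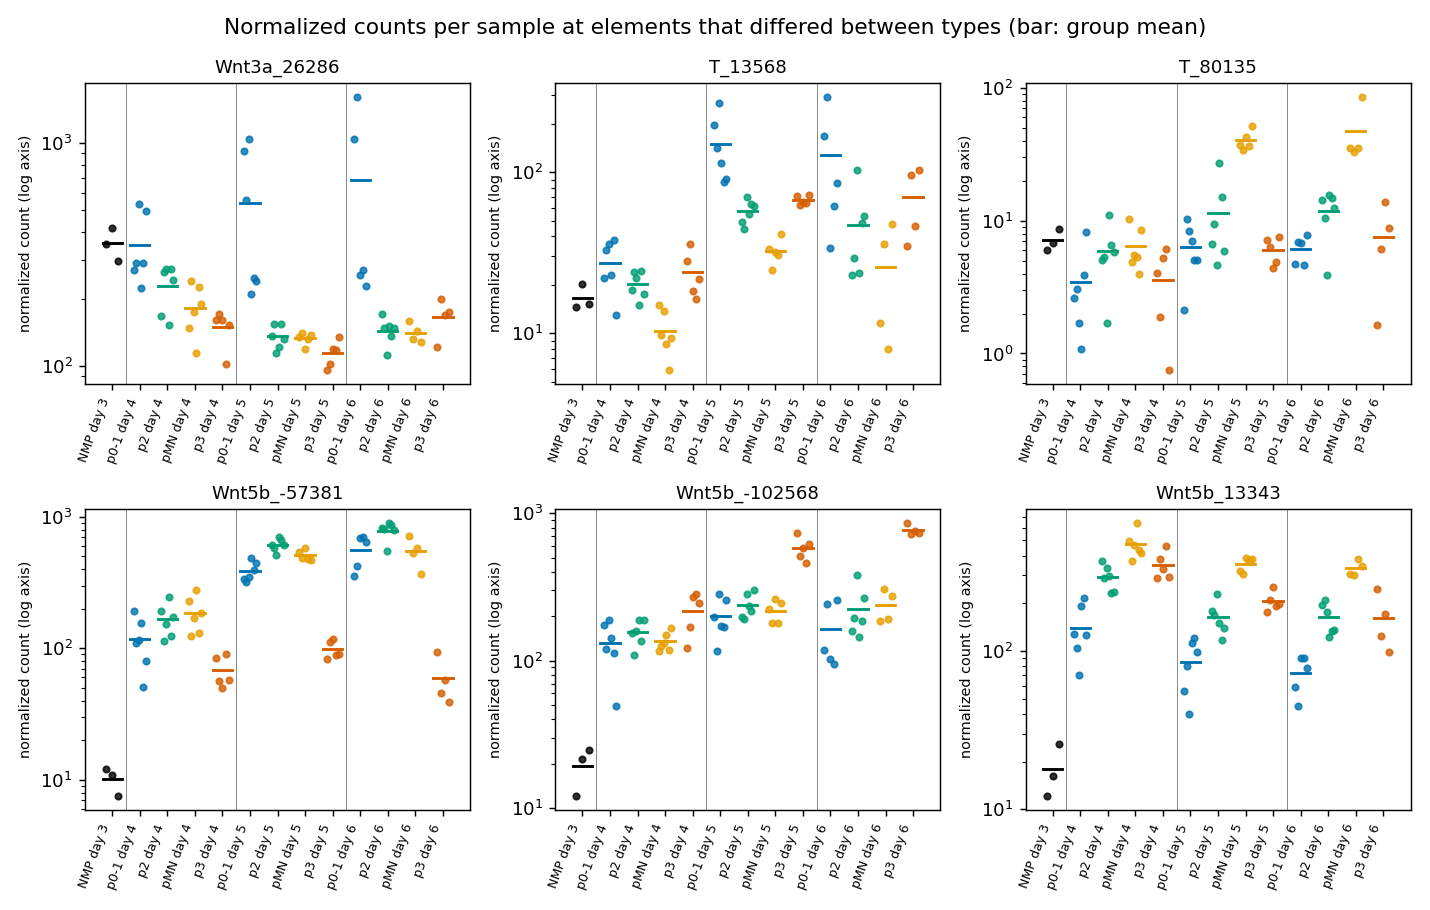
Normalized counts of every sample (points, log axis) and group means (bars) at 6 elements, for NMPs at day 3 and the 4 NP types at days 4, 5 and 6. Among NP samples of day 6, p3 lies lowest at Wnt5b_-57381 and highest at Wnt5b_-102568, pMN lies highest at T_80135 and Wnt5b_13343, and the p0-1 samples split into a higher and a lower set at Wnt3a_26286.

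Smaller differences between types lay at elements singled out after their values were seen. Wnt3a_26286 (chr11:59263578-59265352), in intron 2 of Wnt3a, had 352, 417 and 297 in NMPs and means at day 6 of 682 in p0-1, 144 in p2, 141 in pMN and 166 in p3. pMN differed from p0-1 by -1.63 ± 0.29 SE (adjusted p = 6.70e-05) at day 5 and by -1.71 ± 0.41 SE (adjusted p = 0.00292) at day 6, with no overlap and short of the threshold of 2. Within p0-1 the samples of these days split by SAG. At day 5 the 0 nM samples had 922, 558 and 1047 and the 10 nM samples had 211, 247 and 242. At day 6 the 0 nM samples had 1045 and 1609 and the 10 nM samples had 257, 269 and 229. In a limma fit of 10 against 0 nM across all elements, added after these values were seen, the difference was -1.75 ± 0.20 (SE) with an adjusted p of 0.0176 at day 5, or 2.09e-09 with the replicate number as a block, and -2.31 ± 0.21 (SE) with an adjusted p of 0.0575 at day 6, where the replicate numbers were not taken to pair samples. T_13568, downstream of T, had a mean of 16.6 in NMPs and means of 149.7 in p0-1, 57.5 in p2, 32.4 in pMN and 67.0 in p3 at day 5, where pMN differed from p0-1 by -1.78 ± 0.20 SE (adjusted p = 1.09e-07). Its p0-1 samples also split by SAG, with 197, 141 and 268 at 0 nM and 114, 86.5 and 90.7 at 10 nM at day 5, and 168 and 292 and 33.8, 61.7 and 86.2 at day 6. The difference of 10 from 0 nM in that limma fit was -0.94 ± 0.22 (SE) at day 5 (adjusted p = 0.0953, or 4.99e-05 with the block) and -1.76 ± 0.36 (SE) at day 6 (adjusted p = 0.0813). The corresponding difference at Wnt5b_13343 was 0.83 ± 0.22 (SE) at day 5 (adjusted p = 0.127, or 0.000268 with the block). Without the block, the fit of 10 against 0 nM called 0 of the 48 elements on either day, also at a threshold of 1. Of all elements at that threshold, it called 3 at day 5, all higher at 10 nM, and 0 at day 6. Calls with the block were not counted over all elements. T_80135 had a mean of 7.14 in NMPs and means of 6.33 in p0-1, 11.5 in p2, 40.3 in pMN and 6.06 in p3 at day 5, a difference of 1.67 ± 0.20 SE (adjusted p = 3.37e-07) between pMN and p0-1. Its pMN samples were above all p0-1 samples at days 5 and 6.

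Sequence features are given beside those of all elements as a description. The GC content of the 9 elements called lower in at least 1 type at day 4 ran from 47.5 to 63.5% with a median of 51.8%. That of the 5 called higher ran from 39.8 to 51.1% with a median of 45.8%, and the median of all elements was 48.1%. In the central 300 bases, CTTTGAT was found in 3 of the 48 elements, 2 of them (Wnt5b_-91571 and Wnt8a_-226) among the 9 called lower, and in 5.04% of all elements. TTTATGG or TTTATTG was found in 4 of 48 and in 9.61% of all, ACAATGG in 3 of 48 and in 7.43% of all, and AGGTGTGA in 0 of 48 and in 1.06% of all. TGTTTAC, searched for after the p3 values were seen, was found in 3 of 48 elements and in 4.95% of all. The 3 were Wnt5b_-99690, Wnt5b_-102568 and Wnt5b_-125637, whose matches are in capitals in the sequences above, and Wnt5b_-57381 had no match in its window. Msgn1_-12699, T_147422, Wnt5b_-22863, Wnt5b_-46801 and Wnt5b_-91571 had no match either. With the replicate block they too were higher in p3 at day 6, by 1.25, 1.15, 1.14, 0.83 and 0.63 on the VST scale.

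Other genes of the same setting were counted over all their elements at day 4, where 5.34 to 6.24% of all elements were called lower and 8.8 to 11.3% higher. For 14 tailbud and presomitic transcription factors (82 elements), 19 to 21 elements per type were called lower and 1 to 3 higher, with median differences of -1.01 to -1.22. In pMN, Cdx1, Cdx2, Cdx4, Sp5, Evx1, Eomes, Mesp1, Mesp2, Tcf15 and Meox1 had lower elements only, Foxc1 had 2 lower and 2 higher, and Mixl1, Hes7 and Foxc2 had no element called. For 15 Wnt, FGF, Notch and retinoid signal genes (184 elements), 19 to 24 were lower and 14 to 21 higher, with medians of -0.07 to -0.22. In pMN, Wnt3, Rspo3, Fgf5 and Fgfr1 had lower elements only, Dusp6, Dll1 and Cyp26a1 had higher elements only, Wnt5a, Axin2, Lef1, Fgf3 and Spry2 had both, and Fgf4, Dll3 and Lfng had no element called. For neural progenitor genes (139 elements of 8 genes), 2 to 3 were lower and 24 to 34 higher, with medians of 0.30 to 0.69. Among elements annotated as promoter-TSS and to other genes, 1381 varied by more than 2 between condition means. Those whose pattern over the 25 conditions was most like that of T_-12967 were annotated to Mir3097 (Pearson r = 0.955), Gne (0.953), Krtap5-5 (0.953), Npm3-ps1 (0.949) and Arhgef2 (0.948). Their distances from the TSS of these genes were -22110, -142, -789, -946 and -5533 bp. These r share the 3 NMP libraries.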

How the data were processed

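CaTS-ATAC profiles of 67 sorted samples in 25 conditions (2 or 3 independent differentiations each) were used. The authors aligned reads to mm10, called consensus elements with MACS2 and counted reads per element, and deposited log2-scale variance-stabilized values from DESeq2, with a nearest-TSS annotation from HOMER. Inverting the transform gave whole reads for 100% of 7132705 values below 1000 reads (tolerance 1e-06). A further 7 elements annotated to the 9 genes have no value in the table and are not analysed here. Groups came from the sample labels, with SAG concentrations pooled per type and day. Differences were tested with limma 3.58.1 (variance trend, R 4.3.3) on the deposited values of all 111638 elements with no filter. The fit was tried on simulated data for 1 comparison, p0-1 at day 4 against NMPs, with independent samples. Changes were planted only in elements above a minimum mean. Changes at low counts, paired samples and the other comparisons were therefore not covered. At day 5 every pair of same-numbered samples of different conditions had deviations correlated above 0.1 (lowest r = 0.103, median 0.315), so the numbers in the titles were taken to pair samples there. p-values measure the spread between the sorted samples of a group, all of 1 cell line. An NP group pools both SAG concentrations of its type, and its samples may share a differentiation. The fits without a block treat them as independent. Members, gene lists and tests were chosen with earlier results of these data known. Elements named by rule were, per gene, the one nearest the TSS and those with the largest decrease and increase at day 4, and other elements are said to be chosen after their values were seen. Alternatives were a lower threshold, a filter on the mean, folds of counts, voom on recovered reads, centring, a replicate block and leaving out each replicate. Leaving out the library that stood apart, the SAG comparison within p0-1 and the forkhead search were added after seeing the data.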

Additional observations from a re-analysis of the deposited data

Results flagged for a closer look

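In 216 groups of 4 to 10 samples, 3 held a sample far from the others by Dixon's test, where chance gives about 1 group in 20. Fgf17_-3877 had 149 normalized counts in p3 at day 4, 100 nM SAG, replicate 3, against 183 to 195 in the other p3 samples of that day. Replicate 3 of p0-1 at day 4 and 10 nM SAG had 667 at Tbx6_-913, against 556 to 595 in the other p0-1 samples, and 743 at Wnt5b_137, against 350.4 to 449. This is the library whose profile was most like that of NMPs among those of day 4. Between types, the tested VST differences past the threshold were those of Wnt5b_-57381, lower in p3 than in the other types (-2.20 at day 5 and -3.18 at day 6), Wnt5b_-99690 and Wnt5b_-125637, higher in p3 at day 6 (2.49 and 2.44), and Wnt5b_13343, higher in pMN than in p0-1 at day 6 (2.06). In p3, 2.08% of the 48 were lower at day 5, and 2.08% lower and 4.17% higher at day 6. Of all elements, 1.62% were lower and 1.2% higher at day 5, and 2.74% and 3.69% at day 6. For pMN against p0-1 at day 6, 2.08% of the 48 were higher, where 0.236% of all elements were lower and 1.03% higher.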

How the results depend on the processing

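With a threshold of 1 in place of 2 on the VST difference, 16, 19, 18 and 19 elements were lower than in NMPs at day 4 in p0-1, p2, pMN and p3 (18.6, 20.2, 20.4 and 19.9% of all elements), and 22, 22, 23 and 25 at day 6 (23.5, 24.3, 24.7 and 24.3%). That threshold called 7 between days 4 and 5, 2 of them lower and 5 higher (all elements 3.31 and 8.9%). Between p3 and the other types it called 2 at day 4, 1 lower and 1 higher (3.88 and 2.79%), 6 at day 5, 3 and 3 (10.1 and 8.08%), and 7 at day 6, 1 and 6 (11.8 and 12.6%). Between pMN and p0-1 it called 1 at day 4, which was higher (0.328 and 3.27%), 6 at day 5, 4 and 2 (3.49 and 7.91%), and 6 at day 6, 3 and 3 (3.08 and 8.77%). With a mean above 100 normalized counts required, 5 were lower at day 4 in p2 and 5 in pMN, 1 was called between days 4 and 5, and 1 between p3 and the others at day 6. Fewer elements enter under that filter. With folds of mean counts plus 1, there were 4 calls between days 4 and 5, 3 for p3 at day 5, and 4 and 4 for pMN against p0-1 at days 5 and 6. voom on recovered reads gave 4, 3, 3 and 2 for the same comparisons. Centring samples on their medians left 0 between pMN and p0-1 at day 6. Of these settings, shares of all elements were counted only for the threshold of 1. The cause of these shifts was not tested.

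Leaving out 1 replicate gave 5 to 8 lower elements at day 4 in p0-1, and 8 to 9 in p2, pMN and p3. At day 6 it gave 11 to 12, 12 to 13, 11 to 14 and 12 to 13. It left 2 calls between days 4 and 5 and 0 between days 5 and 6. For p3 it gave 0, 1 to 2 and 3 to 4 at days 4, 5 and 6, and for pMN against p0-1 0, 0 to 1 and 1 to 2. Without replicate 3 the 1 call between pMN and p0-1 at day 6 was T_13568, in place of Wnt5b_13343. Without replicate 3 of p0-1 at 10 nM SAG, 7 were lower in p0-1 at day 4. Of the values of named elements, 553 kept direction and side of the threshold, 14 newly passed it, and 1, T_-759 in p0-1, no longer did.

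Reversals were seen at Msgn1_-12699 at day 4, where the difference from NMPs was near 0. Centring gave -0.0752 in p0-1, -0.0466 in p2 and -0.195 in pMN. Leaving out 1 replicate gave -0.0234 to 0.237 in p0-1, -0.191 to 0.239 in pMN and -0.0417 to 0.341 in p3, the lowest of each without replicate 1, and without NMP replicate 1 or 2 it was -0.00403 and -0.00620 in pMN.

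Between NMPs and day 4, replicate numbers were not shown to pair samples, since same-numbered samples had median correlations of 0.0460 to 0.111 of their deviations, the lowest -0.193. Between types at days 4 and 6 the lowest such correlations were -0.340 and 0.0413, so that not every pair was above 0.1. Their medians were 0.380 and 0.400, where samples with different numbers had medians of -0.180 and -0.324. With the replicate block, 2 elements were called for p3 at day 5, where Wnt5b_-99690 joined, and 2 for pMN against p0-1 at day 6, where T_13568 joined, and no other count moved by more than 1.5 times. The replicate numbers of the sample descriptions, which differ from those of the titles in 15 samples, gave 1 for each of these. For low-count elements, the compression by the VST limits what a difference of 2 can detect.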
